A study of Homo sapiens with 4 samples.

Results

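BT-474 is an established human breast cancer cell line that the labels describe as luminal B-like. The libraries described here are the 2 control libraries of the series, out of 4 in all, chosen by the genotype label wild-type. The other 2 libraries come from cells that carry an NRP-1 expression vector and are not compared here. The control cells were grown in RPMI-1640 with fetal bovine serum, and the labels name no drug and no vector for them. Total RNA was enriched for polyadenylated RNA with oligo(dT) beads before sequencing. Both libraries are from 1 cell line, and the sources used here do not say that they came from separate cultures, so the spread between them may be technical. The deposited expected counts summed to 8243595 reads in control library 1 and 8308030 in control library 2. Of 18064 gene IDs listed in either library, 16504 were listed in both and 1560 in only 1, where the median was 1 read.

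BT-474 cells are known for amplification of ERBB2, the gene of the HER2 receptor tyrosine kinase. HER2 has no known ligand of its own and signals in pairs with other receptors of the ERBB family. Luminal breast cells line the milk ducts, carry keratins 8 and 18, and depend on transcription factors such as GATA3, FOXA1 and the estrogen receptor. Levels below are in FPKM, the number of fragments scaled by the length of the transcript and by the size of the library, which allows genes of different length to be set side by side. A gene was called detected when it had at least 1 FPKM in both libraries. The deposited tables hold no gene at 0, so a gene that is missing from them is called not listed.

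The 5 genes taken to mark these cells were all detected, but not all were high. ERBB2 had 1200 FPKM in library 1 and 1299 in library 2. KRT8, a luminal keratin, had 1022 and 1008 FPKM, and its partner KRT18 had 658 and 611. All 3 were among the 100 most abundant RNAs. GATA3 had 7.23 and 7.26 FPKM and ESR1, the estrogen receptor alpha gene, had 7.39 and 8.16, both close to the median of 5.49 FPKM over all listed genes.

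Promoters of 11 abundant genes that the results below turn on are shown first. They are examples of secretory, receptor, keratin and translation genes, not the highest of each kind, and AGR2 is shown for the motif it shares with SCGB2A2 and LCN2. Each sequence runs from 50 bases before the RefSeq start of transcription to 10 bases from the start on, 60 bases in all, 5′ to 3′ on the strand of the gene, from the RefSeq promoter table of GRCh38.p14. Capitals mark the letters ATAAATAG or TATAAA between 45 and 15 bases before the start, or a run of C and T that begins with C and spans at least 6 letters from 2 bases before to 12 bases after the start.
SCGB2A2, the mammaglobin gene, + strand, chr11:62270108-62270167: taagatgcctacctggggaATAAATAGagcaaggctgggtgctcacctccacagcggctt
LCN2, the lipocalin 2 gene, + strand, chr9:128149403-128149462: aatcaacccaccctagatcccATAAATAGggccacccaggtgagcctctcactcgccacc
AGR2, a protein disulfide isomerase of the secretory pathway, - strand, chr7:16804990-16805049: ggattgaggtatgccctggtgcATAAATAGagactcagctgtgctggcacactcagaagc
SCGB1D2, the lipophilin B gene, + strand, chr11:62242189-62242248: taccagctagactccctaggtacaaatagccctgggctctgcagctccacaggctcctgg
MUCL1, a small breast mucin-like protein, + strand, chr12:54854466-54854525: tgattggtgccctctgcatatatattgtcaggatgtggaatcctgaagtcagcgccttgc
ERBB2, + strand, chr17:39688044-39688103: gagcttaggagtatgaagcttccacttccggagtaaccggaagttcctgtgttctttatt
KRT8, - strand, chr12:52926460-52926519: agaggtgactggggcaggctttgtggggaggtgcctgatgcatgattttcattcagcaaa
RPL19, a protein of the large ribosomal subunit, + strand, chr17:39200233-39200292: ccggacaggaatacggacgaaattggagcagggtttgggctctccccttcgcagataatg
RPS18, a protein of the small ribosomal subunit, + strand, chr6:33272025-33272084: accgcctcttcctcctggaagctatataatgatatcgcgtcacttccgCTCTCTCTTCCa
RPLP0, a protein of the ribosomal stalk, - strand, chr12:120201102-120201161: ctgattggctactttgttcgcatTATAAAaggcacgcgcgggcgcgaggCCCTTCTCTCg
EEF1A1, which brings aminoacyl-tRNA to the ribosome, - strand, chr6:73521023-73521082: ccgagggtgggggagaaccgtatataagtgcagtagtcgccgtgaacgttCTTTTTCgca

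Only the strand of the gene was searched, and TATAAA and ATAAATAG can overlap. The pyrimidine run was in 46 of the 68 ribosomal protein promoters that the table holds, or 67.6%, and in 11.2% of the 13576 promoters of listed genes. Among the 100 most abundant genes, 33 of the 73 with a promoter had it. ATAAATAG, a motif chosen after SCGB2A2 and LCN2 had been read, was in 24 of 13576 promoters, or 0.177%, and in 4 of 18 promoters of the secretory genes, those of SCGB2A2, LCN2, AGR2 and SCGB2A1. TATAAA was in 2.38% of all promoters and in 2 of the same 18. These letters describe the sequences and are not shown to act in these cells.

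The most abundant RNAs of the control cells coded for ribosomal proteins, small secreted proteins, the ferritin heavy chain, the actin cytoskeleton and HER2. RPL19 was highest, with 14212 FPKM in library 1 and 12997 in library 2 (13604 ± 859, SD, n = 2). SCGB2A2 came second with 9588 and 10999 FPKM (10293 ± 997, SD, n = 2), or 2.05% and 2.41% of all FPKM. Mammaglobin is a small secreted protein of the secretoglobin family, made mainly in the breast. RPL23, also of the large ribosomal subunit, ranked 4 with 7624 and 7247 FPKM (7435 ± 267, SD, n = 2). The 100 most abundant genes held 33.4% and 31.7% of all FPKM, and 16.3% and 15.4% of reads. A mean of at least 1000 FPKM was reached by 49 genes, at least 100 by 639 and at least 10 by 6719.

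By number of reads, which favours long RNAs, the order was different. RPL19 stayed first with 84846 and 78166 reads, and EEF1A1 was second with 69966 and 63767. ERBB2 moved from rank 27 by FPKM to rank 4, with 46249 and 50435 reads, or 0.561% and 0.607% of each library. IGFBP5, a secreted protein that binds insulin-like growth factors, ranked 6 by reads, with 39267 and 48708 reads, and 70 by FPKM, with 744 and 916.

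Outside the ribosomal protein and translation factor genes, the 20 most abundant RNAs fell into a few kinds. FTH1, the ferritin heavy chain that stores iron, had 3886 and 3428 FPKM, and TMSB4X, the actin-binding thymosin beta 4, had 3340 and 3070. ACTB and ACTG1, the cytoplasmic actins, had 1805 and 1883, and 1618 and 1656. The glycolytic enzyme GAPDH had 1383 and 1335 FPKM. Secreted or surface proteins of epithelia were frequent in this group. MUCL1 had 2396 and 2395 FPKM, and SCGB1D2, whose product pairs with mammaglobin, had 1843 and 1775. The trefoil factors TFF3 and TFF1, small proteins secreted with mucus, had 1411 and 1208 FPKM, and 1266 and 1203 FPKM. CEACAM6, a surface adhesion glycoprotein, had 1011 and 1153 FPKM. Chaperones of the endoplasmic reticulum were also there, with CALR at 1074 and 1184 FPKM and HSPA5 at 1114 and 1091.

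Other high values need care. MTRNR2L2, MTRNR2L8 and MTRNR2L1 had mean levels of 7653, 4494 and 1487 FPKM. They belong to a family of nuclear sequences that closely resemble the large ribosomal RNA gene of the mitochondrion, so their reads cannot be placed with certainty. The 9 listed MTRNR2L genes took 1.89% and 1.65% of reads, while 0 of the 37 mitochondrial genes were listed. Gene ID 100616209, which has no symbol in the table used, ranked 5 at 5203 and 4159 FPKM from only 1658 and 1335 reads over 74 bases. FPKM divides by a length that is shortened for very short genes. In library 1 this raised the value 1.91-fold over reads per full length for the 5 genes of 50 to 100 bases, against 1.01-fold for genes of 600 to 2000 bases. A second ID without a symbol, 100505503, had 1385 and 1238 FPKM.

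The ribosomal proteins formed a large block of RNA by FPKM. The 86 listed genes held 18.3% and 16.8% of all FPKM but 6.48% and 5.79% of reads, and 49 of them were among the 100 most abundant genes. Their median was 718 FPKM, and 77 had at least 100. RPL19 and RPL23 stood above the rest, since the highest of the other 84 was RPS18 with 2638 and 2284 FPKM. RPL19 was 18.5 and 20.2 times the median of the other 84 in the 2 libraries, and RPL23 was 9.92 and 11.3 times that median. At the low end, RPL3L, a form known from muscle, had 0.63 and 0.24 FPKM.

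All 19 translation factors listed were detected, with a median of 247 FPKM. EEF1A1 led with 2389 and 2162 FPKM. TPT1, the translationally controlled tumor protein, had 1150 and 1148, EEF2, the factor that moves the ribosome along the message, had 1073 and 962, and EEF1A2, the form of EEF1A1 known from nerve and muscle, had 200 and 197. Glycolysis was carried by 20 detected genes of 26. ALDOA, PKM and ENO1 followed GAPDH, with means of 702, 426 and 362 FPKM. The lactate dehydrogenase genes were unequal, LDHA at 190 and 193 FPKM and LDHB at 6.14 and 6.10, and PGK2, a form known from testis, was listed in library 2 only, at 0.07.

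Luminal epithelial genes were detected in 31 of 32 cases, with a median of 119 FPKM, which is far over the 5.49 of all listed genes. Simple epithelial keratins led the keratin family. KRT19 had 1173 and 1122 FPKM and KRT7 had 625 and 627, beside KRT8 and KRT18 above. The next keratin, KRT15, had 21.6 and 17.9 FPKM, and of 55 keratin genes in RefSeq 11 were detected and 25 were not listed. Among tight junction genes CLDN4 had 280 and 292 FPKM and CLDN7 had 189 and 162, while EPCAM and CDH1, the epithelial adhesion molecules, had 161 and 169, and 139 and 135.

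The luminal transcription factors covered a wide range. XBP1, a factor of the secretory stress response, had 542 and 581 FPKM, the epithelial factors SPDEF and ELF3 had 208 and 224, and 126 and 134, and FOXA1, which opens chromatin for the estrogen receptor, had 116 and 123. TRPS1 had 22.6 and 23.1 FPKM. GATA3 stood at 7.23 and 7.26 FPKM from 184 and 186 reads, and TFAP2B was not listed. The hormone receptor genes were of like size, with ESR1 at 7.39 and 8.16 FPKM (395 and 437 reads) and PGR, the progesterone receptor, at 7.05 and 7.16 (702 and 717 reads).

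**Figure D1:**
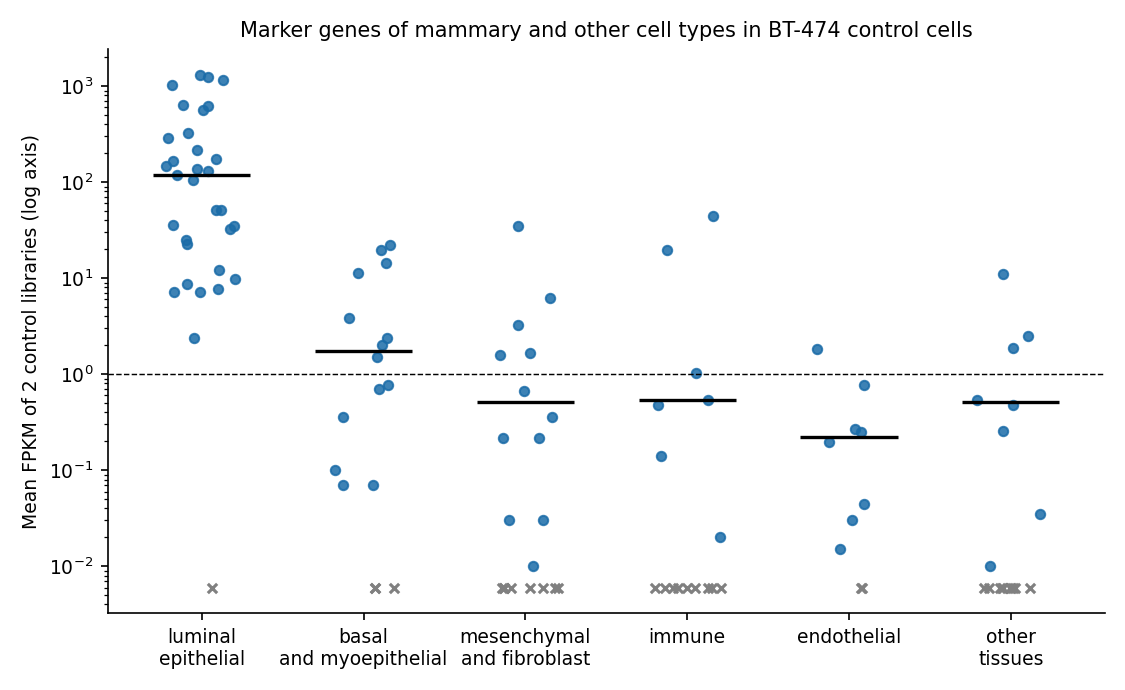
Mean FPKM of the 2 control libraries (log axis) for each marker gene in 6 lists. Circles are listed genes, crosses at the bottom are genes not listed, thick bars are medians of the listed genes, and the dashed line marks 1 FPKM. The luminal list lies at a median of 119 FPKM, and the medians of the other 5 lists lie between 0.22 and 1.76.

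Basal and myoepithelial markers were mostly low, with 8 of 17 detected and a median of 1.76 FPKM over the listed ones. KRT5, KRT14 and CNN1, the keratins of the basal layer and a smooth muscle protein, were not listed. EGFR at 21.3 and 22.8 FPKM, KRT15, CDH3, the placental cadherin, at 14.2 and 14.8, and LAMA3, a basement membrane laminin chain, at 12.4 and 10.2 were the ones over 10. Of the mesenchymal and fibroblast genes 5 of 20 were detected and 8 were not listed, among them COL3A1, DCN, PDGFRA, PDGFRB and SPARC. COL1A1, the main chain of type I collagen, was the exception with 35.2 and 34.97 FPKM from 1739 and 1740 reads, while its partner chain COL1A2 was listed in library 1 only, at 0.02. VIM, the intermediate filament of mesenchymal cells, had 3.89 and 2.69 FPKM.

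In RNA of a whole culture, fewer cells of a type and less RNA per cell cannot be told apart. Immune genes were detected in 2 of 16 cases and 9 were not listed, among them CD3D, CD3E, CD4, CD14 and CSF1R, defining genes of T cells and monocytes. LYZ, lysozyme, had 46.4 and 41.6 FPKM and CD68, a lysosomal protein, had 20.8 and 18.1. Both are also made by some epithelial cells. Only FLT1 of 10 endothelial genes was detected, at 2.10 and 1.57 FPKM, with TEK and ERG not listed. Among 18 genes of other tissues, 10 were not listed and MBP, TNNT2 and HBA1 were detected, the highest being MBP at 10.2 and 11.8 FPKM.

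The secretory genes, a list of products that the breast or its tumors are known to secrete, were detected in 21 of 29 cases with a median of 50.4 FPKM over the 24 listed. Beyond those named above, AZGP1, zinc-alpha-2-glycoprotein, had 868 and 753 FPKM, and SERPINA1, antitrypsin, had 142 and 112. SCGB2A1, the mammaglobin B gene, had 119 and 98.4 FPKM against 9588 and 10999 of SCGB2A2. PIP, the prolactin-induced protein of apocrine cells, had 83.6 and 71.5. The milk protein genes CSN1S1, CSN2, CSN3 and LALBA were not listed. Among mucins, the membrane mucin MUC1 had 104 and 109 FPKM, and the gel-forming MUC6 and MUC5B had 91.3 and 101, and 57.6 and 67.5, whereas MUC5AC and MUC13 were not listed and MUC2 had 0.05 and 0.02. In the CEACAM family CEACAM5 followed CEACAM6 with 77.8 and 83.8 FPKM. The keratin, mucin and CEACAM families were chosen after their values had been seen.

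Of 58 receptor tyrosine kinases 27 were detected, 21 were listed under that level in at least 1 library, and 10 were not listed. Their median was 2.70 FPKM, so ERBB2 with 1250 ± 70.4 (SD, n = 2) stood apart from the list. It was 15.8 and 17.3 times ERBB3, the kinase-poor partner of HER2, which had 76.2 and 74.9 FPKM, and 56.4 and 57.1 times EGFR. ERBB4, the remaining member, had 0.19 and 0.21 FPKM from 19 and 21 reads. DDR1, a receptor for collagen, was second of the list with 85.2 and 90.1 FPKM. ERBB3 came next, and PTK7, EPHB4 and RYK followed it with means of 40.8, 34.7 and 25.8. IGF1R, the type 1 insulin-like growth factor receptor, had 10.8 and 9.72 FPKM, FGFR4 had 9.11 and 13.4, and MET, the hepatocyte growth factor receptor, had 3.07 and 2.95.

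Ligands of the ERBB receptors were low, with 7 of 11 detected and none at 10 FPKM. AREG, amphiregulin, led with 9.86 and 8.54 FPKM, and TGFA followed with 4.92 and 4.03. Of the neuregulins, NRG1 and NRG2 bind ERBB3 and ERBB4, while NRG3 and NRG4 bind ERBB4. NRG1 was not listed, NRG2 and NRG3 were at or under 0.10 FPKM, and NRG4 had 1.10 and 1.21. GRB7, an adaptor that binds HER2 and is coded near its gene, had 325 and 351 FPKM.

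Of 48 nuclear receptors 29 were detected and 6 were not listed, with a median of 2.89 FPKM. NR2F6, an orphan receptor, was highest with 111 and 126 FPKM, and NR4A1, ESRRA and THRA followed with means of 51.0, 45.6 and 44.4. THRA lies in chromosome order directly after the high stretch around ERBB2 described below. RARA, a retinoic acid receptor, had 19.3 and 20.3 FPKM and VDR, the vitamin D receptor, had 7.55 and 8.17. NR3C1, the glucocorticoid receptor, had 1.16 and 1.08, ESR2, the estrogen receptor beta gene, 0.51 and 0.64, and PPARG, a regulator of fat cells, was not listed.

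Integrins, the receptors for matrix, were detected in 10 of 26 cases. ITGB1, the common beta chain, had 95.3 and 102 FPKM, and ITGA3 and ITGA6, alpha chains for laminin, had 30.3 and 28.5, and 18.6 and 18.5. ITGAV had 9.17 and 8.73, ITGB5 had 16.3 and 20.7, and ITGB4 had 10.4 and 10.8. ITGB3 was listed in library 2 only, at 0.02 FPKM from 1 read, ITGA5 had 0.14 and 0.20, and ITGA4 was not listed. NRP1, the neuropilin-1 coreceptor that the study overexpressed in its other libraries, had 0.15 and 0.17 FPKM from 7 and 8 reads, NRP2 had 0.05 and 0.06, and TNC, the matrix protein tenascin C, had 0.63 and 0.95. ABCG2, a drug efflux pump, was listed in library 1 only, at 0.06 FPKM from 2 reads.

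Genes around ERBB2 on chromosome 17 were high in both libraries. All 19 genes of the 17q12 list were listed, 16 were detected, and their median was 176 FPKM. On either side of ERBB2, PGAP3, which edits lipid anchors, had 262 and 267 FPKM, and MIEN1, linked to cell migration, had 844 and 795. STARD3, a cholesterol transporter, had 362 and 356, ORMDL3, a regulator of sphingolipid synthesis, had 535 and 527, and PSMD3, a subunit of the proteasome, had 750 and 731. Some genes of restricted tissues in the same list were low. NEUROD2, a neuronal factor, had 0.08 and 0.28 FPKM. CSF3, a myeloid growth factor, was listed in library 1 only at 0.25, and ZPBP2, a gene of sperm, in library 2 only at 0.33. Others were higher, with IKZF3, a lymphoid factor, at 26.46 and 26.85 FPKM and TCAP, a muscle protein, at 17.24 and 15.96.

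Read along the chromosome in RefSeq order, the high levels ran from MRPL45, 31 protein-coding genes before ERBB2, to MED24, 11 genes after it, edges that were chosen after the values had been seen. Of the 43 protein-coding genes in this stretch 41 were listed and 36 detected. At least 100 FPKM was reached by 19, or 46.3% of those listed, beside 3.96% of all listed protein-coding genes. The listed genes had a median of 65.5 FPKM, and 14 of the 43 had a mean under 10 FPKM or were not listed. The stretch held 6.45% and 6.28% of all FPKM, most of it from RPL19 and RPL23, and 4.13% and 4.09% of reads. Its highest genes after RPL19, RPL23 and ERBB2 were LASP1, an actin-binding adaptor, with 932 and 1012 FPKM, and PSMB3, a proteasome subunit, with 890 and 821. MLLT6 had a mean of 357 ± 0.72 FPKM (SD, n = 2). FBXO47 was not listed although it lies between LASP1 and RPL19. The next 10 listed genes after MED24 had a median of 17.5 FPKM and a highest level of 44.4, but the gene after those, IGFBP4, a binding protein of insulin-like growth factors, had 250 and 230.

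**Figure D2:**
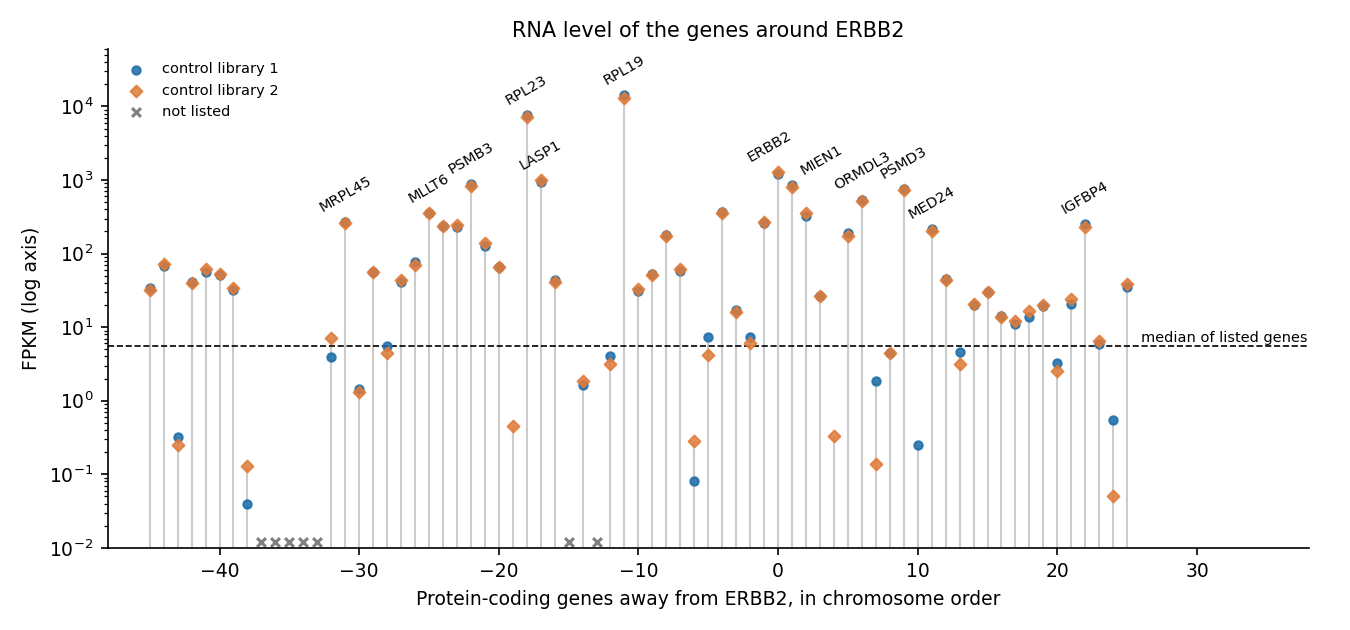
FPKM (log axis) of the protein-coding genes around ERBB2 on chromosome 17, placed by their number of genes from ERBB2, in control library 1 (circles) and control library 2 (diamonds). Crosses are genes not listed and the dashed line is the median of all listed genes, 5.49 FPKM. Levels at or above 100 FPKM are frequent from MRPL45 to MED24 and alternate with genes near or under 1 FPKM.

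Across the genome, the 11585 windows of 15 neighbouring protein-coding genes with at least 1 FPKM had window medians with a median of 11.4. The highest was 211, in the window from CDK12 to MED24 (218 in library 1 and 204 in library 2). The highest 1% of windows, at 48.8 FPKM or more, joined into 15 stretches. After the 17q12 stretch, the highest were a window on chromosome 11 from TMEM258 to EEF1G at 88.5, and 2 stretches on chromosome 20, from CHMP4B to SPAG4 at 80.0 and from ATP9A to SYCP2 at 72.3. Chromosome 17 also held stretches from MRPL12 to DCXR at 57.4 and from MTMR4 to RNFT1 at 53.3. DNA copy number was not measured in these libraries, so levels of a stretch cannot be split into gene copies and RNA per copy.

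Other regions known to be amplified in breast cancer were lower. The 17q23 list had a median of 34.3 FPKM, with 17 of 19 detected, led by CLTC, the clathrin heavy chain, with 389 and 390 FPKM and VMP1, a protein of autophagy, with 375 and 402. The 20q13 list had a median of 25.5, with 20 of 24 detected. RAE1, a nuclear export factor, had 167 and 175 FPKM, BCAS1 had 157 and 181, NCOA3, a coactivator of nuclear receptors, had 154 and 155, and ZNF217, a transcription factor, had 107 and 104. The 11q13 list had a median of 21.6 over 8 listed genes of 10. CTTN, cortactin, had 146 and 136, CCND1, cyclin D1, had 82.2 and 84.4, and FGF3 and FGF4 were not listed. At a minimum mean of 1 FPKM, where the median of all genes was 10.1, the 4 medians were 196, 34.3, 37.7 and 21.6 in the order given here.

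All 42 breast cancer driver genes were listed and 37 were detected, with a median of 11.1 FPKM. AKT1, a kinase of the PI3K pathway, led with 208 and 219 FPKM. MYC had 56.7 and 56.4 and BRCA1 had 5.55 and 7.53. PIK3CA, the catalytic subunit of PI3K, had 2.07 and 3.92 FPKM from 64 and 122 reads. These are levels of RNA and say nothing about mutation.

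Many annotated genes were not listed. Of 19993 protein-coding genes in RefSeq, without chromosome Y, 15562 were listed, 11679 were detected and 4431 were not listed. Several families with many genes missing, chosen after the tables were seen, were ones of restricted tissues. Of 392 olfactory receptor genes 26 were listed and 4 detected, the highest being OR7D2 at 5.90 and 7.32 FPKM. Of 94 keratin-associated protein genes of hair 10 were listed and 3 detected, the highest being KRTAP5-2 at 10.88 and 10.90 FPKM. Of 39 beta-defensin genes only DEFB1 was listed, at 1.06 FPKM in both libraries. None of the 17 type I interferon genes was listed. Among the HOX clusters, which set position along the body, 9 of 9 HOXC genes were detected, as were 4 of 10 HOXB, 3 of 9 HOXD and 0 of 12 HOXA entries. HOXC10 had 18.2 and 22.5 FPKM, HOXB7 had 25.5 and 27.0 and HOXB13 had 17.5 and 19.9. In noncoding classes 667 of 1334 listed lncRNA genes were detected, while levels of the 144 listed miRNA and 186 snoRNA genes come from short genes in libraries of polyadenylated RNA and are not read as levels of the mature RNAs.

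The libraries agreed closely. Over the 18064 listed genes Pearson's r of log2(FPKM + 1) was 0.987 and Spearman's rho of FPKM 0.977, given as a description across genes, which share length and sequence composition between the libraries. Of the detected genes 84.3% were within 1.25-fold and 99.0% within 2-fold of each other. The median coefficient of variation of the 2 values was 10.5% for genes of 1 to 5 FPKM, 6.22% at 5 to 20, 4.27% at 20 to 100 and 4.09% from 100 on. The biological coefficient of variation, the spread left after counting noise as edgeR estimates it, was 0.0627 over 13799 genes.

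To see which genes varied more than counting noise, the reads of each gene were tested by an exact two-sided binomial test with Benjamini-Hochberg adjustment. This compares 2 libraries and no conditions, and its p covers counting error only, with every read taken as an independent molecule, so very small p-values here do not measure the spread between cultures. Of 15114 genes with at least 10 reads in both libraries together, 1079 passed an adjusted p of 0.05, or 7.14%. Of these 591 were higher in library 2, or 3.91% of the genes tested, and 488 in library 1, or 3.23%. Which library had more calls depended on the setting, with 535 higher in library 2 and 532 in library 1 under TMM-scaled totals, and 144 and 187 at an adjusted p under 0.001. The changes were mostly small, with a median size of 0.31 on the log2 scale, and 143 exceeded 2-fold. Genes with more reads pass this test at smaller ratios. The shares over all genes tested serve as the background below and are not matched for read number, so lists of abundant genes can exceed them for that reason.

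Many ribosomal protein genes were lower in library 2. Of the 86 tested, 63 were called higher in library 1, where the background was 3.23%, and 0 were called higher in library 2, with a median log2 ratio of library 2 over library 1 of -0.20 beside 0.0049 for all genes tested. RPS16 had 1155 and 893 FPKM and RPL36 had 787 and 605, log2 ratios of -0.37 and -0.38 (adjusted p of the exact binomial test 7.4e-34 and 9.5e-18). RPL41 at 1960 and 2009 FPKM and RPL7 at 1159 and 1180 did not pass the test. Translation factors were split, with 8 of 19 called higher in library 1 and 3 in library 2, where the background was 3.23% and 3.91%.

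Of 22 proliferation genes all had a log2 ratio above 0, and 11 passed the test as higher in library 2, where the background for that direction was 3.91%. None was called higher in library 1, and the median log2 ratio was 0.28. CCNB1, cyclin B1, had 9.47 and 16.98 FPKM from 170 and 307 reads (log2 ratio 0.84, adjusted p of the exact binomial test 6.4e-08). AURKA, a mitotic kinase, had 36.0 and 45.9, UBE2C, which marks mitotic cyclins for destruction, had 31.3 and 44.8, PCNA, the sliding clamp of replication, had 105 and 121, and MKI67, the Ki-67 gene, had 3.40 and 4.23. RRM2, a ribonucleotide reductase subunit, had 44.4 and 44.6 and did not pass. With TMM-scaled totals 22 of 22 were still higher in library 2, and the median log2 ratios of the ribosomal proteins and the proliferation genes were -0.21 and 0.27.

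Of the 23 secretory genes tested 5 were called higher in library 1 and 2 in library 2, beside 3.23% and 3.91% of all genes tested. LCN2, an iron-carrier-binding protein induced in inflammation, had 1201 and 862 FPKM and AGR2 had 275 and 382, log2 ratios of -0.48 and 0.47 (adjusted p of the exact binomial test 8.1e-81 and 1.1e-29). CLU, clusterin, had 17.2 and 12.2. At the large read numbers of IGFBP5 and ERBB2, log2 ratios of 0.30 and 0.11 also passed (adjusted p of the exact binomial test 7.4e-203 and 1.5e-31). Of the 31 luminal genes tested 4 were called higher in library 2 and 6 in library 1, beside the same 3.91% and 3.23%, and GATA3, ESR1 and PGR did not pass. That background is not matched for read number, and KRT19, for example, passed at a log2 ratio of only -0.065 from 14302 and 13779 reads. FGFR4, PIK3CA and TP63, the last a basal factor with 12 and 43 reads, were called higher in library 2, with log2 ratios of 0.51, 0.91 and 1.79.

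The genes with the largest ratios were mostly ones that share sequence with another annotated gene. Among genes with at least 100 reads, NBPF11, of a family of many near-identical copies, had 0 and 218 reads, and the readthrough gene HSPE1-MOB4 had 114 and 0. POC1B-GALNT4 had 110 and 14.2, RBM14-RBM4 had 155 and 36.8, and PTCD1, which overlaps a readthrough gene, had 288 and 92.3. The other 5 of the 10 with the largest ratios were the unnamed gene ID 414216, LOC100630923, PLA2G4B, the pseudogene HNRNPA1P10 and IL10, the last with 36.8 and 94.1 reads. Of 63 tested readthrough genes, which join the exons of 2 neighbours, 25 were called, or 39.7%, where the background was 7.14%.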

How the data were processed

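RNA-seq of 2 control libraries was used. The authors deposited, per gene, an RSEM expected count (an estimate that can hold fractions of reads) and the FPKM with 2 decimals, without genes at 0. The submitters' processing notes name bcl2fastq 2.16, HISAT2 2.0.1, Bowtie2 2.2.5 and RSEM, and 2 genome builds with no role, so RefSeq GRCh38.p14 served for names (99.4% of IDs matched), gene order and promoters only. Counts were rounded for the binomial test (at least 10 reads together) and for edgeR 4.0.16 in R 4.3.3, which estimated dispersion; scipy 1.17.1 and Python 3.11.15 were used otherwise. No test between conditions is possible with 1 group. In simulated data with 200 genes changed 2-fold among 15120, the binomial test recovered 99.0% with 11 false calls. The simulated counts held counting noise only, and the changed genes were drawn from those with a mean of at least 100 reads. These figures therefore do not give the recovery for genes with fewer reads or the false calls in the real libraries. Its p-values cover counting error only, with reads taken as independent molecules, at 8243595 and 8308030 reads, and hold no term for the spread between cultures. Genes named are the 20 highest by FPKM, the 20 highest outside ribosomal proteins, mitochondrial genes and translation factors, the 10 largest ratios between libraries at 100 reads or more, and list members. Others, among them IGFBP5, MTRNR2L genes outside these ranks, the genes around ERBB2 outside the lists, RPS16, RPL36, the readthrough genes and gene families, were chosen after their values were seen. Members and lists were chosen with earlier results of these data known. The authors' table of fold changes and probabilities was not used. Some list members and regions are not reported here.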

Additional observations from a re-analysis of the deposited data

How the results depend on the processing

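The levels rest on 2 libraries of 1 cell line, and 44 of 70 alternatives left a value within the spread or within 1.5 times the count. Those for the correlation, the biological coefficient of variation and the median of all genes were counted as moved without that check. For the shares, the spread comes from the same 2 libraries, so a value from 1 of them falls within it largely by arithmetic. The tally therefore does not measure how stable the levels are. No paired analysis was possible because only 1 group was used. With an adjusted p of 0.001, 331 genes differed between the libraries, 144 of them higher in library 2 and 187 in library 1. Pearson's r was 0.964 with a pseudocount of 0.1, 0.978 at a mean of at least 1 FPKM and 0.993 on log2(CPM + 1), and the biological coefficient of variation was 0.0631 without TMM and 0.0647 without a filter. By expected counts the 100 genes with most reads, a different set from the 100 highest by FPKM, held 19.1% of reads, the ribosomal proteins 6.14%, and ERBB2 ranked 4. With only 1 library, ERBB2 ranked 24 and 31, the 100 most abundant genes held 31.7% to 33.4% of FPKM and the ribosomal proteins 16.8% to 18.3%, and 13287 to 13330 genes were detected. With only 1 library the list medians were 173 to 177 FPKM for 17q12, 32.7 to 34.5 for 17q23, 26.6 in both cases for 20q13 and 21.1 to 22.1 for 11q13. At a mean of at least 1 FPKM they were 196 for 17q12 and 37.7 for 20q13, beside 10.1 for all genes. At a minimum of 5 FPKM, the detected members were 4 of the basal, 2 of the mesenchymal, 0 of the endothelial, 1 of the other-tissue, 18 of the nuclear receptor and 14 of the receptor tyrosine kinase list, and at 0.5 FPKM 2 endothelial genes were detected. Added after seeing the data, windows of 10 and 25 genes or of all listed genes had highest medians of 301, 176 and 181, all on chromosome 17, and summing readthrough genes with their partners left 1027 genes called. Low genes rest on few reads, and the deposited tables do not show the depth behind a gene that is not listed.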
